A study of Mus musculus with 5 samples.

Results

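The genes described here are the major histocompatibility complex (MHC) genes of the mouse H2 locus and the partner genes that their proteins need. The members are every gene symbol in the deposited gene lists that begins with H2-, leaving out symbols that contain -ps, together with B2m, Cd74, Ciita, Tap1 and Tap2. This gave 39 of the 31053 genes listed. They fall into 2 classical class I genes, 3 genes of the class I light chain and peptide transport, 22 nonclassical class I genes, 4 classical class II chains, 7 genes of class II chaperoning and control, and H2-Ke6, which shares only the symbol: it encodes a steroid dehydrogenase of the region and no MHC chain. In the GRCm38 annotation B2m lies on chromosome 2 (122147686 to 122153083), Ciita on chromosome 16 (10480059 to 10528418) and Cd74 on chromosome 18 (60803848 to 60812652), and all the other members lie on chromosome 17.

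Class I molecules sit on almost every nucleated cell, pair with beta-2 microglobulin (B2m), and show peptides from inside the cell to CD8 T cells and natural killer cells. The transporter subunits Tap1 and Tap2 carry those peptides into the endoplasmic reticulum. Class II molecules show peptides taken up from outside, are made mainly by B cells, dendritic cells and macrophages, and need the invariant chain Cd74 and the transcriptional activator Ciita. Mouse liver is known for one class I molecule of its own, the secreted product of H2-Q10.

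The study sequenced single liver cells of C57BL/6J mice in droplets, with 1 library for each of 5 groups. One group was taken on postnatal day 14 (P14) and one is the adult control. In the others, partial hepatectomy (PHx), the removal of most of the liver, was done at 8 weeks of age and the cells were taken 24 h, 48 h or 96 h later. The labels name no transgene and no drug, and the strain is the same in all 5 groups. The labels' protocol counts the adult control among the operated samples, whereas its title, source and missing treatment entry make it an unoperated adult, and it was used as the control. The labels give neither sex nor the number of animals behind a library. The adult control alone carries lane code 2 in its label where the other libraries carry 1, so lane and control status cannot be told apart.

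Barcodes were read in 3 classes. Hepatocyte barcodes had at least 5000 UMIs (unique molecular identifiers, each standing for 1 captured transcript), 10 to 30% of them mitochondrial, and at least 1% from Alb, Apoa1 and Ttr together. Leukocyte barcodes had under 10% mitochondrial UMIs and at least 3 UMIs of Ptprc, Coro1a and Laptm5. Endothelial barcodes had UMIs of at least 3 of Stab2, Ptprb, Gpr182, Kdr, Egfl7 and Clec4g and none of Ptprc. In the order P14, adult control, 24 h, 48 h and 96 h, which is kept for every series of 5 values here, these were 2106, 925, 1170, 719 and 771 hepatocyte barcodes, 252, 976, 594, 1174 and 666 leukocyte barcodes, and 64, 80, 233, 139 and 126 endothelial barcodes. Libraries held 80927744 to 136110607 UMIs, and any pair of libraries shared at most 4 of these barcodes. Median depth was 18527 to 38922.5 UMIs per hepatocyte barcode, 4630 to 8560 per leukocyte barcode and 971 to 3330.5 per endothelial barcode. Free RNA, read from 40000 near-empty droplets per library, came to 466, 1328, 670, 290 and 795 UMIs per droplet.

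Levels are CPM, the UMIs of a gene summed over a class per 1000000 UMIs of that class without mitochondrial genes, with 95% exact Poisson intervals in square brackets. With 1 library per group there is no replicate check and no test. Intervals cover counting error only, and not differences between animals or preparations. A gene is said to have risen or fallen where log2((CPM + 1)/(CPM + 1)) reached 1 or -1, a 2-fold difference, and at least 1 of the libraries had 5 CPM; other differences are given as values. All ratios over the adult control share that 1 library. Genes are compared between libraries and not with each other.

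Of the 39 members, 23 reached 50 CPM in at least 1 class and library, 3 stayed between 5 and 50 CPM, and 13 stayed under 5 CPM everywhere. The last set is made up of nonclassical genes: H2-M1, H2-M10.1, H2-M10.2, H2-M10.3, H2-M10.4, H2-M10.5, H2-M10.6, H2-M11, H2-M9 and H2-T3 had 0 UMIs in every class, while H2-M2, H2-M5 and H2-Q2 had 18, 4 and 178 UMIs in all. The genes of middle level were H2-Q1 (highest value 17.5 CPM), H2-Eb2 (10.9 CPM) and H2-T24 (20.4 CPM).

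Sequences upstream of 4 members are shown because these genes carry the main results: H2-K1 and H2-D1, the classical class I pair, H2-Q10, the hepatocyte gene among the nonclassical ones, and H2-Aa, a class II chain at the floor in hepatocytes. Each is the 250 bases before the transcript start, from RefSeq on GRCm38.p6, read along the gene's own strand. Capitals mark exact matches, on either strand, to the enhancer A element bound by NF-kappa-B factors, in the form H2-K1 carries (GGGGATTCCCC), to a core of the interferon-stimulated response element (GAAGTGAAA, which appears as TTTCACTTC) and to the Y box bound by NF-Y (CTGATTGG, or CCAATCAG).
H2-K1, chr17:34000348-34000597, minus strand: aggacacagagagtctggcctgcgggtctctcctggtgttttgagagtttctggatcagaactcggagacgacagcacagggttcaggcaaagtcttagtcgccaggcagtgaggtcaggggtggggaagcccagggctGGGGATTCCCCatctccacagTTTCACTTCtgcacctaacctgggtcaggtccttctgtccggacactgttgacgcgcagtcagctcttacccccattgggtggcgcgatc
H2-D1, chr17:35262844-35263093, plus strand: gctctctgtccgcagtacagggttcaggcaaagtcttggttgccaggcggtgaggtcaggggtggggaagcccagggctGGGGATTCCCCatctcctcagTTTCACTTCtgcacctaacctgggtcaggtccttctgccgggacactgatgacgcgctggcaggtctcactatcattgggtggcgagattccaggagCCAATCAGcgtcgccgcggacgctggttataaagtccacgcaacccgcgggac
H2-Q10, chr17:35469839-35470088, plus strand: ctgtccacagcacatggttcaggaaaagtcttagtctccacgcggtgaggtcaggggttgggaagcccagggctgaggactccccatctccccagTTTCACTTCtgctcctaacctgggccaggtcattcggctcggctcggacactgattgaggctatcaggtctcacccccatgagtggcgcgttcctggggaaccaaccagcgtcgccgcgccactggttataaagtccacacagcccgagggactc
H2-Aa, chr17:34287824-34288073, minus strand: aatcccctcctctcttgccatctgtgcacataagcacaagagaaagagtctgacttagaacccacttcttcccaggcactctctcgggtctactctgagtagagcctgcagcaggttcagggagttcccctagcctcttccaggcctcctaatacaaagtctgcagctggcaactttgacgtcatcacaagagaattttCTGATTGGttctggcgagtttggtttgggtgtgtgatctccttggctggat
In H2-K1 the enhancer A match lies 111 bases upstream of the start and the interferon core 90 bases upstream. In H2-D1 the same pair lies 171 and 150 bases upstream, with a Y box at 53. Distances count from each annotated start. The H2-K1 window ends in a stretch that in H2-D1 lies just upstream of this Y box. It therefore does not cover the counterpart of the Y box. H2-Q10 keeps the interferon core, 155 bases upstream. Its counterpart of the enhancer A site reads GAGGACTCCCC, with the substitutions G2A and T6C against H2-K1 (positions from 1 at the 5′ end of the H2-K1 site as printed). H2-Aa has a Y box 51 bases upstream and neither of the other 2 motifs.

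Upstream windows were present for 33 of the 39 members. An exact enhancer A was found in 3 of them (H2-K1, H2-D1 and H2-Q6), the interferon core in 7 and the Y box in 17. Over all 27025 windows of this length the shares were 0.0222% (6 windows), 0.429% and 4.07%. The H2-Q7 counterpart of the enhancer A site carries the substitution C11A and that of H2-Q4 carries C8T. The enhancer A letters were taken from H2-K1, so the match in that gene was given in advance. Over 31 bases around the site H2-D1 and H2-Q6 differ from H2-K1 at 1 and 2 bases. The enhancer A count is therefore no measure of enrichment. The interferon core lay in H2-K1, H2-D1, H2-Q4, H2-Q6, H2-Q7, H2-Q10 and H2-M3. The Y box matches included H2-M1, H2-M9, H2-M10.1, H2-M10.3, H2-M10.4, H2-M10.5, H2-M10.6 and H2-M11, which had no UMI in any class. Windows of related genes are not independent, so these counts are not read as enrichment either. A match is a run of letters, not evidence that a factor binds there.

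In hepatocyte barcodes H2-K1, a classical class I heavy chain, differed between all 5 libraries. It stood at 474 CPM [469–479.5] in the P14 library, 2239.9 [2215–2266] in the adult control, and after surgery 1573 [1556–1591], 982 [969–996] and 1137 [1119–1155] (24 h, 48 h and 96 h). The adult control was the highest of the 5 and P14 the lowest, and no intervals overlapped. H2-K1 was 4.72-fold lower at P14 than in the adult control [4.65–4.80] and 2.28-fold lower at 48 h [2.24–2.32], and both passed 2-fold. At 24 h it was 1.42-fold lower [1.40–1.45], and at 96 h 1.97-fold lower [1.93–2.01], just short of the threshold.

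Single barcodes were also compared, although barcodes of 1 library are not replicates. The middle 50% of hepatocyte barcodes lay between 350 and 605 CPM of H2-K1 at P14, between 1877 and 2692 in the adult control, between 1314 and 1967 at 24 h, between 809 and 1235 at 48 h and between 911 and 1427 at 96 h. The P14 range lay below all the others. The 24 h range overlapped those of the adult control and 96 h, and the 96 h range that of 48 h. After each barcode was thinned to 5000 UMIs, 84.2% of P14 hepatocyte barcodes [82.6–85.7, exact binomial] had an H2-K1 UMI, against 99.9% of those of the adult control (lower bound 99.4%).

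H2-D1, the other classical heavy chain, did not pass 2-fold in any hepatocyte comparison. Its levels were 244, 407, 343, 309.9 and 371 CPM. P14 was again the lowest, 1.67-fold below the adult control, and the 3 libraries after surgery lay within 1.31-fold of it. B2m, the light chain of every class I molecule, stood at 1360.3, 3189, 2281, 1764 and 2859.6 CPM. It fell 2.34-fold at P14 [2.32–2.37], and was 1.40-fold, 1.81-fold and 1.12-fold lower at 24 h, 48 h and 96 h. B2m at 96 h was thus nearer to the adult value than H2-K1 was.

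The peptide transporter genes were low in hepatocytes. Tap1 stood at 13.1, 19.1, 9.22, 13.8 and 22.8 CPM and Tap2 at 10.0, 6.98, 6.35, 5.57 and 6.92 CPM. Tap1 at 24 h was 2.07-fold below the adult control but stopped short of the threshold on the log2(CPM + 1) scale, at -0.97.

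**Figure D1:**
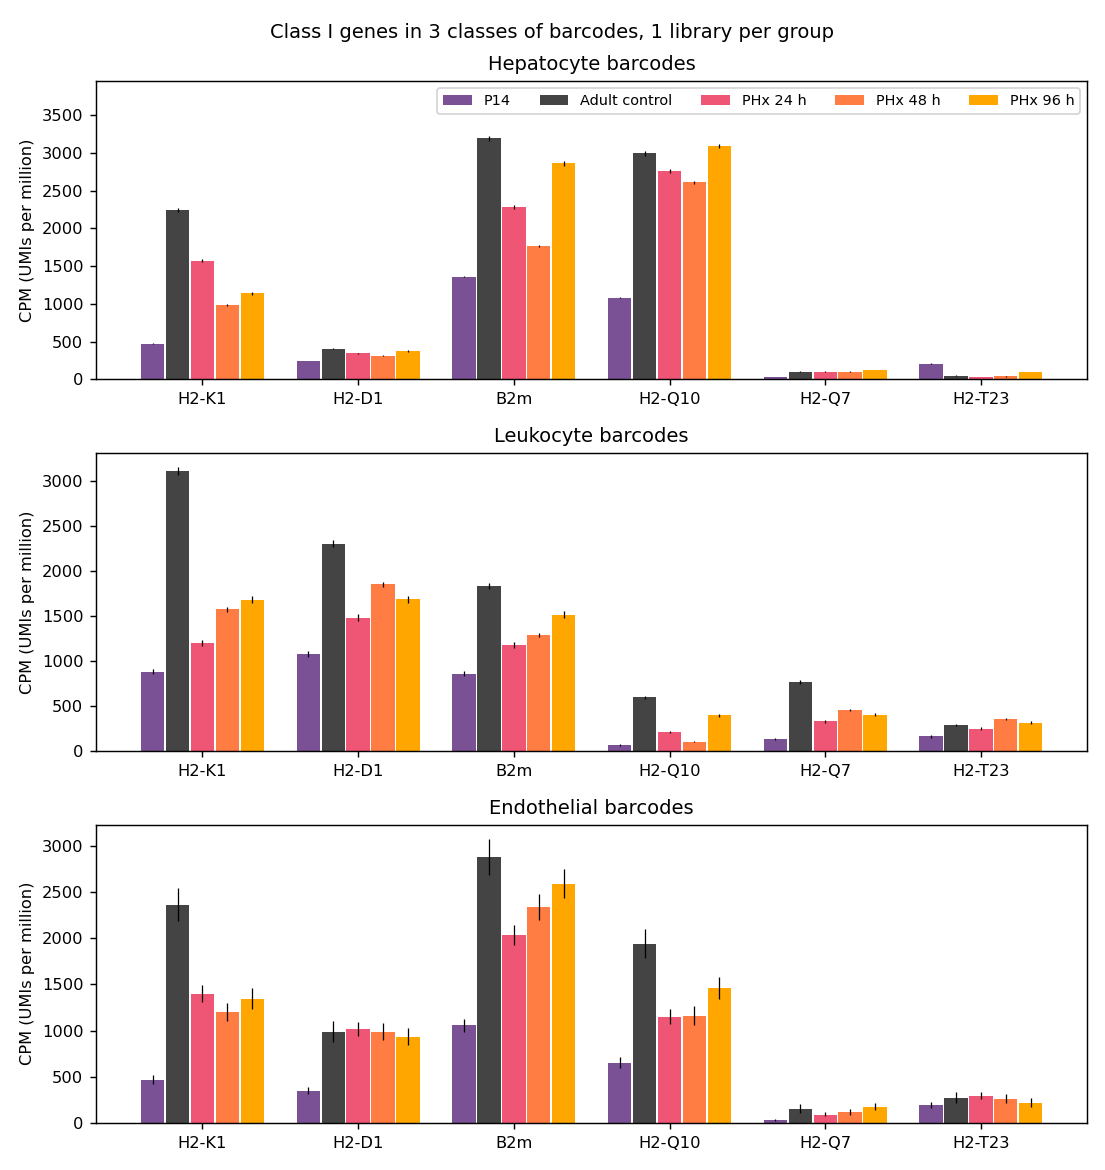
Bars show CPM (linear axis from 0) of H2-K1, H2-D1, B2m, H2-Q10, H2-Q7 and H2-T23 in hepatocyte, leukocyte and endothelial barcodes of the 5 libraries, and black lines are 95% Poisson intervals. H2-K1 is highest in the adult control in all 3 panels and lowest at P14, while H2-Q10 in hepatocytes is low only at P14 (1083 CPM against 2607 to 3092).

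H2-Q10, which encodes the secreted class I molecule of liver, separated P14 from all adult libraries. Its levels were 1083 CPM [1075–1091] at P14, 2992 [2963–3022] in the adult control, and 2758, 2607 and 3092 after surgery. It was 2.76-fold lower at P14 [2.73–2.80]. After PHx it stayed within 1.15-fold of the adult control, the direction being lower at 24 h and 48 h and higher at 96 h.

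H2-Q7, a gene for the Qa-2 antigen, was also lowest at P14, with 35.2, 101, 103, 99.2 and 123 CPM. It was 2.86-fold lower at P14 than in the adult control [2.67–3.06]. H2-Q6 ran at 6.43, 13.2, 11.1, 15.4 and 18.9 CPM and H2-T22, a ligand of some gamma-delta T cell receptors, at 56.2, 98.7, 89.6, 90.8 and 92.7 CPM. Neither passed 2-fold in hepatocytes. H2-Q4 ran the other way, at 12.5, 6.76, 5.28, 7.82 and 11.5 CPM, also within 2-fold of the adult control.

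2 nonclassical genes rose at P14. H2-T23, which encodes Qa-1, the ligand of the inhibitory CD94/NKG2A receptor of natural killer cells, stood at 207 CPM [204–211] at P14, 48.4 [44.7–52.2] in the adult control, and after surgery 31.6 [29.1–34.2], 39.7 [37.1–42.5] and 96.5 [91.3–102] (24 h, 48 h and 96 h). P14 was 4.29-fold above the adult control [3.96–4.65]. The 96 h library was 2.43-fold above the 48 h library [2.22–2.65] and 2.00-fold above the adult control [1.81–2.20], the latter just under the threshold at 0.98. With barcodes thinned to 5000 UMIs, 54.6% of hepatocyte barcodes had an H2-T23 UMI at P14, 15.2% in the adult control, and after surgery 10.3%, 13.1% and 27.9% (24 h, 48 h and 96 h). Leukocytes, which express the gene, gave 61.8 to 77.2% at the same depth, counting only leukocyte barcodes with at least 5000 UMIs.

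H2-T23 and H2-K1 thus had opposite directions in the same P14 barcodes. In free RNA H2-T23 stood at 137, 51.0, 37.8, 45.8 and 82.4 CPM, so that its level in hepatocyte barcodes exceeded free RNA at P14 and 96 h and lay below it in the other 3 libraries.

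H2-Q1, a nonclassical gene of the Q region (chromosome 17, 35320405 to 35325099), was nearly missing from adult control hepatocytes. It had 1075, 18, 136, 87 and 235 UMIs, or 16.6 CPM [15.7–17.7], 1.35 [0.801–2.14], 6.97 [5.85–8.24], 4.18 [3.34–5.15] and 17.5 [15.3–19.9]. P14 was 12.3-fold above the adult control [7.75–20.9], 24 h 5.16-fold [3.14–8.96] and 96 h 12.9-fold [8.01–22.2]. The counts came from many barcodes: 753 barcodes had a UMI at P14, 14 in the adult control, and after surgery 115, 74 and 175 (24 h, 48 h and 96 h), and no barcode held more than 11 UMIs.

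At equal depth the share of hepatocyte barcodes with an H2-Q1 UMI was 6.51%, 0.432%, 2.22%, 1.67% and 5.71%. At that depth at most 1 leukocyte barcode per library had one, which is at most 0.340% of those with at least 5000 UMIs. The call at 24 h was lost with a pseudocount of 10 CPM. The result also depends on the mitochondrial limits of the hepatocyte rule. Among barcodes with 10 to 20% mitochondrial UMIs the adult control had only 87 barcodes and 9 UMIs of H2-Q1, and the log2 ratios became 0.97 at P14, 0.00 at 24 h and -0.36 at 48 h, while 96 h stayed past 2-fold at 1.51. Of the 50-base words in the last 400 bases of its transcript, 23.1% also occur in H2-Q2, which stayed under 5 CPM everywhere. For H2-K1 against H2-D1 and for H2-Q7 against H2-Q10 that share was 0.570%.

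Across the members that could be compared in hepatocytes at P14, 2 of 14 rose (H2-Q1 and H2-T23) and 4 fell (B2m, H2-K1, H2-Q10 and H2-Q7). Of all 9011 genes compared, 7.89% rose and 13.8% fell. The median log2 ratio was -0.70 over the members and -0.26 over all genes. Hepatocyte markers (Alb, Apoa1, Ttr, Serpina1c and Fabp1) summed to 156210 CPM at P14 against 52461 in the adult control, and their part in the P14 differences was not tested. Scaling by the trimmed mean of M-values (TMM), which set the median of all genes to 0.08, brought B2m to -0.89, short of the threshold. H2-K1 (-1.90), H2-Q10 (-1.12) and H2-Q7 (-1.15) stayed past it, as did H2-T23 (2.42). With TMM 3 of 14 members rose and 3 fell.

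At 24 h 1 of 14 members rose (H2-Q1) and 0 fell, where 8.51% of genes rose and 7.13% fell. At 48 h 0 of 13 rose and 1 fell (H2-K1), against 8.3% and 7.63% of genes. At 96 h 1 of 14 rose (H2-Q1) and 0 fell, against 4.07% and 1.88%. H2-Q1 was under 5 CPM in the adult control and met that minimum only through the library where it was higher. It could therefore be counted as rising but not as falling, at P14 as well. The same applies to its rise from 48 h, where it was under 5 CPM too. With a minimum of 50 CPM 0 members rose at 24 h and at 96 h over the adult control. From 48 h to 96 h H2-Q1 and H2-T23 rose (2 of 14, background 4.38%) and 0 fell (4.24%). That number became 1 with a pseudocount of 10 CPM or a minimum of 50 CPM and 3 with 10 to 20% mitochondrial UMIs. Between 24 h and 48 h Cd74 rose (1 of 14, background 1.78%) and 0 fell (1.76%), Cd74 on 52 and 137 UMIs, while Cd74 in free RNA went from 5.44 to 59.0 CPM. That count became 0 with free RNA subtracted, mitochondrial UMIs in the total, a pseudocount of 10 CPM, a minimum of 50 CPM or barcodes of 10 to 20% mitochondrial UMIs, and 3 with no minimum or a minimum of 20 UMIs.

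Free RNA resembled the hepatocyte profile for class I. H2-K1 ran at 344, 2048, 857, 596 and 609 CPM in free RNA and B2m at 1091, 2858, 1084, 995 and 1679 CPM, below the hepatocyte level in each library. Subtracting free RNA left the H2-K1 ratio at -2.24 for P14 and -1.20 for 48 h, past 2-fold in both.

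Class II transcripts were at the floor in hepatocytes. Cd74 stood at 3.38, 5.93, 2.66, 6.58 and 7.14 CPM, H2-Aa at 1.36, 1.58, 1.02, 3.17 and 2.16 CPM, and Ciita at no more than 0.15 CPM. Cd74 was below its level in free RNA (9.77, 5.44, 59.0 and 10.9 CPM) in all 4 adult libraries. At P14 it was above free RNA (2.22 CPM), but 80 of its 218 UMIs lay in 1 barcode. The 6 B cell markers summed to between 1.90 and 6.02 CPM in hepatocyte barcodes and the 9 monocyte or macrophage markers to between 4.17 and 12.8 CPM. T cell, NK and conventional dendritic markers each summed to at most 11.0 CPM. Neutrophil markers summed to 30.7, 11.0, 106, 197 and 21.3 CPM, below free RNA in each library. Plasmacytoid dendritic markers (Siglech, Cox6a2, Ccr9, Klk1, Bst2 and Tcf4) summed to 134, 225, 152, 199 and 281 CPM, against 139, 209, 199, 290.1 and 430.3 CPM in free RNA. This list is not specific: in P14 endothelial barcodes it summed to 538 CPM from Bst2 and Tcf4 alone. Its sum is therefore no measure of plasmacytoid transcripts in hepatocyte barcodes. The part of leukocytes of any kind in the Cd74 values was not tested. At 5000 UMIs 0.902%, 2.70%, 0.855%, 3.06% and 2.46% of hepatocyte barcodes had a Cd74 UMI. Among leukocyte barcodes with at least 5000 UMIs the shares were 20.6%, 19.4%, 30.9%, 28.9% and 36.7%. Shallower leukocyte barcodes were left out, and the median at 96 h was 4630 UMIs. Without thinning 370 of all 666 leukocyte barcodes at 96 h had a Cd74 UMI.

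**Figure D2:**
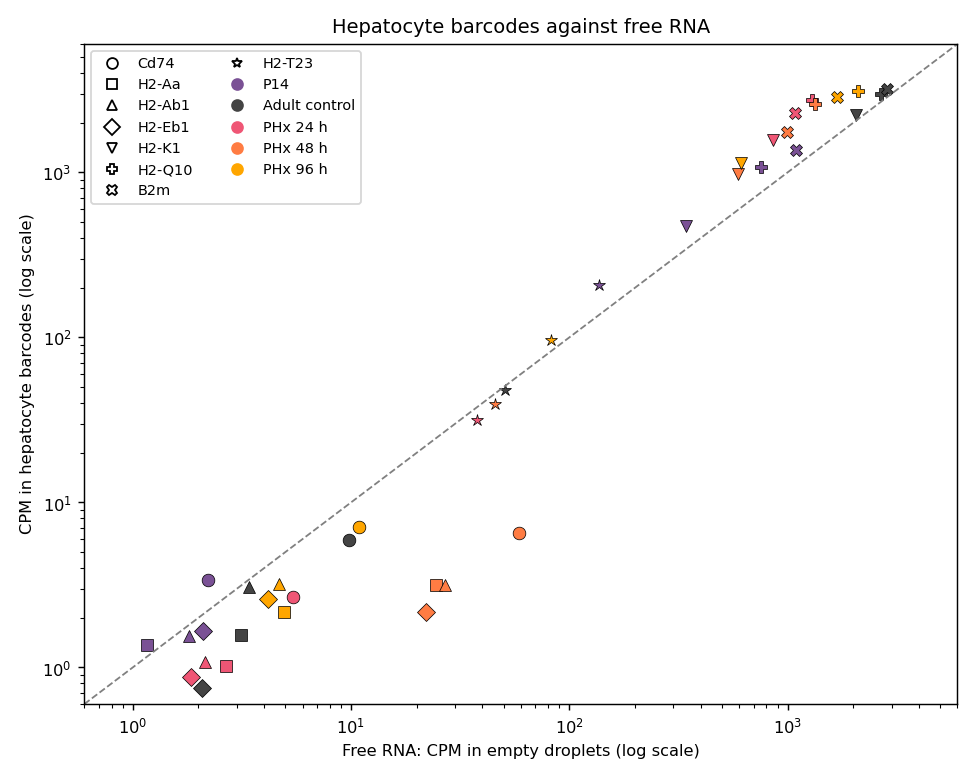
Each point is 1 gene in 1 library, with its CPM in near-empty droplets on the x axis and in hepatocyte barcodes on the y axis (both log scales), and the dashed line marks equal values. The class I genes H2-K1, H2-Q10 and B2m lie above the line in every library, whereas Cd74, H2-Aa, H2-Ab1 and H2-Eb1 lie below it at 48 h, where free Cd74 reached 59.0 CPM against 6.58 in hepatocytes.

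Within each library, hepatocyte barcodes were ranked by pericentral (Cyp2e1, Cyp1a2, Oat, Glul, Slc1a2) against periportal (Cyp2f2, Hal, Sds, Ass1, Hsd17b13) transcripts and the outer 2 of 3 equal bins were compared. These bins are ranges of a score, not cell types. H2-K1 differed little along this axis, with ratios of pericentral to periportal of 1.07, 0.98, 1.03, 1.18 and 1.06. H2-Q1 was higher at the pericentral end in all 4 libraries with enough UMIs: 21.7 against 12 CPM at P14 (1.81-fold [1.55–2.11]), 14.0 against 1.92 at 24 h (7.28-fold [4.03–14.2]), 5.28 against 2.34 at 48 h (2.26-fold [1.22–4.37]) and 27.6 against 7.66 at 96 h (3.60-fold [2.44–5.47]). H2-Q7 leaned the other way, at 0.66, 0.81, 0.72, 0.71 and 0.93 of its periportal level. H2-T23 was at 0.64 and 0.61 of the periportal level at 24 h and 48 h.

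On the log2(CPM + 1) scale H2-Q1 passed 2-fold at 24 h and 96 h, and Tap2 was lower at the pericentral end at 24 h on 21 and 57 UMIs. Those were the only class I members past 2-fold on this axis in the 5 libraries. Of all genes, 1.05%, 1.65%, 1.67%, 1.37% and 3.8% were higher at the pericentral end and 1.45%, 1.22%, 1.09%, 1.74% and 1.54% lower.

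Barcodes with at least 3 of 15 mitotic transcripts after thinning numbered 217, 3, 132, 266 and 51, and were set against barcodes with none. The 3 of the adult control were too few to use. Over P14, 24 h, 48 h and 96 h cycling barcodes had 0.93, 0.84, 0.82 and 0.89 of the H2-K1 level of the others, 0.87, 0.86, 0.85 and 0.82 of B2m, and 0.93, 0.80, 0.82 and 0.91 of H2-Q10. H2-Q7 was higher in cycling barcodes of each library, by 1.99-fold [1.77–2.22], 1.27-fold, 1.42-fold and 1.30-fold. H2-Q6 rose past 2-fold at P14 (14.8 against 5.09 CPM, 2.90-fold [2.27–3.68]) and at 48 h (20.9 against 8.94 CPM, 2.34-fold [1.77–3.11]). It was the only class I member past 2-fold in cycling barcodes of these 4 libraries, in either direction. Of all genes, 8.99%, 7.21%, 7.03% and 9.64% were higher in them and 0.146%, 0.488%, 0.541% and 2.3% lower. Of the 50-base words at the end of its transcript, 11.4% also occur in H2-Q4.

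Lists of genes around the MHC were counted in the same way, against the same shares of all genes: 7.89% rising and 13.8% falling at P14, 8.51% and 7.13% at 24 h, 8.3% and 7.63% at 48 h, and 4.07% and 1.88% at 96 h. For class I peptide processing in hepatocytes, 1 of 12 genes rose and 3 fell at P14. At 48 h and at 96 h 1 rose and 0 fell. The lectin chaperones Calr (494 against 1422 CPM) and Canx (292 against 670 CPM) and the folding enzyme Pdia3 (143 against 323 CPM) fell. Psme2, a subunit of the proteasome activator PA28, rose at P14 (71.7 CPM), at 48 h (82.8 CPM) and at 96 h (74.8 CPM) from 27.6 CPM in the adult control. At 24 h 0 of 12 changed. Nlrc5, the class I transactivator, stayed between 4.47 and 7.74 CPM.

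For the interferon-gamma signal, 1 of 12 genes rose (the receptor gene Ifngr1) and 5 fell at P14. The signal inhibitor Socs3 stood at 1.91, 69.7, 40.4, 22.5 and 12.9 CPM and the related Socs1 at 0.0929, 9.99, 0.307, 0.480 and 0.446 CPM. Socs1 fell in all 4 comparisons and Socs3 fell at P14, 48 h and 96 h. The transcription factor gene Irf1 had 7.56, 20.7, 7.38, 6.14 and 9.90 CPM, falling at P14, 24 h and 48 h. Irf2 fell at P14 and 48 h, and the chemokine gene Cxcl9 at P14 and 24 h. In all, 3 of 12 genes fell at 24 h (background 7.13%), 4 at 48 h (7.63%) and 2 at 96 h (1.88%), and 0 rose.

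Of 6 usable genes of class II processing (among them the proteases Ctsl, Ctsb and Lgmn), 0 changed in hepatocytes in any of the 4 comparisons. Among other MHC-like genes, of which 4 or 5 were usable, Cd1d1, which presents lipids, and Hfe, which governs iron uptake, fell at P14 (86 against 176 CPM and 13.0 against 32.6 CPM). Fcgrt, the neonatal Fc receptor, fell at 24 h (39.3 against 89.1 CPM), and Raet1e, a ligand of NKG2D, rose at 96 h (6.18 against 2.48 CPM). Azgp1, a secreted MHC-like protein, changed in none (914, 1240, 687, 683 and 1162 CPM).

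**Figure D3:**
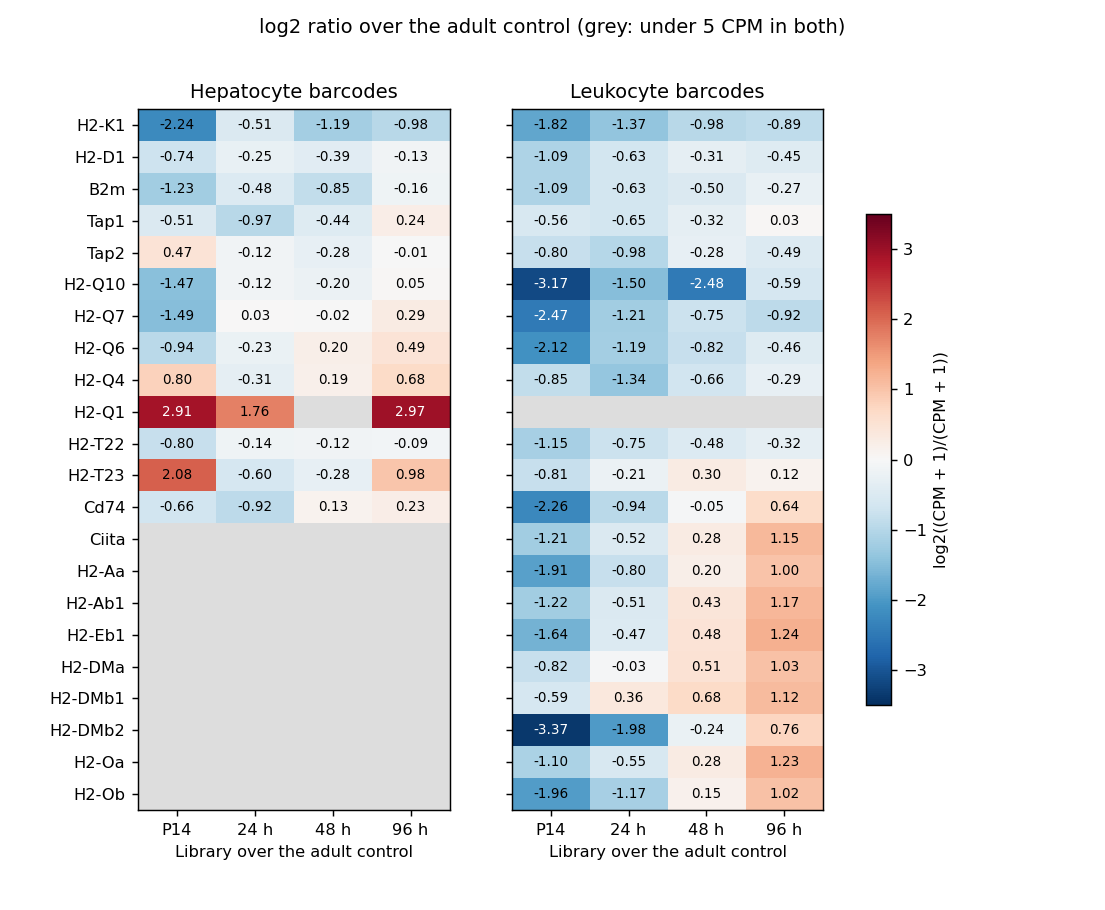
Cells give log2((CPM + 1)/(CPM + 1)) of each library over the adult control for 22 members in hepatocyte (left) and leukocyte (right) barcodes, with red for higher, blue for lower and grey for genes under 5 CPM in both libraries. The P14 column is blue in leukocytes for each gene shown there, and the class II genes in the lower rows are red at 96 h.

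In leukocyte barcodes the class II genes were lowest at P14 and highest at 96 h. Cd74 stood at 461 CPM [439–485] at P14, 2221 [2185–2258] in the adult control, and after surgery 1154 [1123–1187], 2142 [2112–2172] and 3452 [3396–3509] (24 h, 48 h and 96 h). The chain genes were likewise lowest at P14 and highest at 96 h, but at 48 h they stood above the adult control and Cd74 did not. H2-Aa had 129, 487, 279.9, 559.7 and 975 CPM, H2-Ab1 186, 436, 306, 588 and 983 CPM, and H2-Eb1 129, 405, 292, 566 and 958 CPM. C57BL/6 mice lack a working gene for the alpha chain that would pair with the product of H2-Eb1.

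At 96 h all 4 classical class II chains passed 2-fold over the adult control, H2-Aa only at the threshold. H2-Aa was 2.00-fold higher [1.91–2.10] and stayed past 2-fold in 7 of 10 alternatives (lowest log2 ratio 0.87, with free RNA subtracted). The others were higher as well, H2-Ab1 2.25-fold [2.15–2.37], H2-Eb1 2.37-fold [2.25–2.49] and H2-Eb2, on 45 and 28 UMIs, 2.49-fold [1.52–4.14]. Ciita, which switches these genes on, had 9.71, 23.7, 16.3, 29.0 and 53.7 CPM and rose 2.26-fold [1.83–2.80], a call lost with a pseudocount of 10 CPM (0.92). Cd74 was 1.55-fold higher [1.52–1.59] and did not pass the threshold.

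H2-DM exchanges peptides on class II and H2-O restrains it. H2-DMa stood at 59.4, 105, 103, 151 and 216 CPM and H2-DMb1 at 24.8, 38.0, 49.0, 61.2 and 83.5 CPM, and both rose at 96 h. H2-Oa, at 14.3, 31.7, 21.3, 38.7 and 75.7 CPM, and H2-Ob, at 12, 49.7, 21.5, 55.2 and 102 CPM, rose as well. H2-DMb2 had 5.43, 65.4, 15.8, 55.2 and 112 CPM. It fell 12.1-fold at P14 [7.63–20.2] and 4.14-fold at 24 h [3.20–5.42], and was 1.70-fold higher at 96 h.

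In all, 9 of 25 members rose in leukocytes at 96 h and 0 fell, where 4.72% of 10473 genes rose and 6.03% fell. Among the 9, H2-Eb2 was under 5 CPM in the adult control and met that minimum only through the 96 h library. With a pseudocount of 10 CPM in place of 1 the number rising was 3. With free RNA subtracted 6 rose and 1 fell. With mitochondrial UMIs in the total or a minimum of 50 CPM 8 rose. At P14 0 of 24 rose and 16 fell, against 12.5% and 13.7% of genes, and the count was 10 without the deepest 5% of barcodes. At 24 h 0 of 24 rose and 7 fell (background 6.86% and 11.6%), and at 48 h 0 of 25 rose and 1, H2-Q10, fell (5.18% and 11.5%). From 24 h to 48 h H2-DMb2 and H2-Ob rose (2 members, background 1.45%) and 0 fell (4.6%). From 48 h to 96 h H2-DMb2 and H2-Q10 rose (2 members, background 6.94%) and 0 fell (2.29%). The number rising was 5 with free RNA subtracted and 1 with TMM, mitochondrial UMIs in the total or a pseudocount of 10 CPM. The falls at P14, 24 h and 48 h and the rise from 48 h to 96 h each include H2-Q10, a hepatocyte gene whose level in leukocyte barcodes was below that in free RNA in each library.

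Leukocyte sums mix cell types, so barcodes were split by lineage markers: a lineage needed at least 2 of its listed markers and more than any other. B-marker barcodes made up 34.9%, 16.7%, 12%, 24.7% and 43.4% of leukocyte barcodes (88, 163, 71, 290 and 289). T-marker barcodes made up 20.6%, 58.8%, 34.5%, 32.5% and 24.2%. These are shares of recovered barcodes and not of cells in the tissue. B-marker barcodes held 39.0%, 69.2%, 41.6%, 64.3% and 77.0% of all Cd74 UMIs of leukocytes. By barcodes the 96 h library had the largest B-marker share and P14 the second largest. B-marker barcodes held 43.6%, 13.7%, 10.6%, 15.8% and 27.2% of all leukocyte UMIs without mitochondrial genes, the measure that enters the sums. By UMIs P14 thus had the largest share and 96 h the second largest. Class II sums were highest at 96 h and lowest at P14. The part of the B-marker share in these sums was not tested.

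Within B-marker barcodes Cd74 stood at 412 CPM [381–446] at P14, 11237 [11016–11462] in the adult control, and after surgery 4517 [4326–4714], 8714 [8564–8865] and 9794 [9611–9979] (24 h, 48 h and 96 h). The 96 h level was below that of the adult control. H2-Aa within these barcodes was 68.1, 2399, 981, 2253 and 2769 CPM, H2-Ab1 124, 2182, 1078, 2413 and 2699 CPM, and Ciita 8.51, 126, 68.9, 127 and 146 CPM. None of these was as much as 2-fold above the adult control at 96 h, whereas H2-Ab1 and Ciita, and H2-Aa at the threshold, passed 2-fold in the sums over all leukocytes. The 24 h level of Cd74, H2-Aa and H2-Ab1 was under that of the other adult libraries.

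Genes of early B cell stages (Vpreb1, Vpreb3, Igll1, Rag1 and Dntt), chosen after their values were seen, were also summed in B-marker barcodes. Vpreb3, like Ms4a1 below, is one of the markers that assigned them. The early genes summed to 2924 CPM at P14 and to 398, 232, 358 and 289 CPM in the adult libraries. Genes of mature B cells (Ighd, Fcer2a, Cd22, Ms4a1 and Cr2) summed to 187 CPM at P14 and to 1844, 745, 1708 and 2073 CPM. Vpreb1, part of the surrogate light chain, had 598 CPM at P14 and 34.3, 0, 0.673 and 0.891 CPM elsewhere. The part of these stages in the low class II levels of P14 was not tested.

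Dendritic barcodes held part of the class II UMIs outside B-marker barcodes. At P14 720 of 1616 Cd74 UMIs (44.6%) lay in only 2 barcodes with conventional dendritic markers, and at 24 h 660 of 5040 (13.1%) lay in 4. The same 2 barcodes of P14 held 62.0% of the H2-Aa UMIs of that library's leukocytes (279 of 450), 62.5% of those of H2-Ab1 (408 of 653) and 69.9% of those of H2-Eb1 (316 of 452), so that the P14 leukocyte sums of these chains rest mostly on them. Plasmacytoid-marker barcodes held Cd74 at 1689.9, 4461, 2843, 2994 and 2945 CPM. Monocyte or macrophage barcodes had 21.2 CPM [9.17–41.8] at P14, 3422 [3145–3718] in the adult control, and after surgery 185 [154–219], 913 [855–974] and 2143 [2023–2269] (24 h, 48 h and 96 h). These rest on 17, 16, 39, 53 and 34 barcodes. H2-Aa followed the same order there, at 0, 909, 50.7, 336 and 578 CPM.

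Other genes in these monocyte or macrophage barcodes, chosen after their values were seen, are given as a description. The macrophage genes C1qa, C1qb, Cd5l and Adgre1, all 4 of them among the markers that assigned the barcodes, summed to 464, 2690, 465, 308 and 496 CPM. Genes of myeloid progenitors and monocytes did not run together. Mpo, a granule enzyme of progenitors, had 1818, 0, 344, 245 and 909 CPM and Elane, another, 2059, 0, 404, 229.9 and 611 CPM. The monocyte gene Ly6c2 had 2216, 1013, 881, 631 and 584 CPM and Chil3 77.0, 1245, 2430, 2372 and 571 CPM. The part of these genes' cells in the class II values was not tested.

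**Figure D4:**
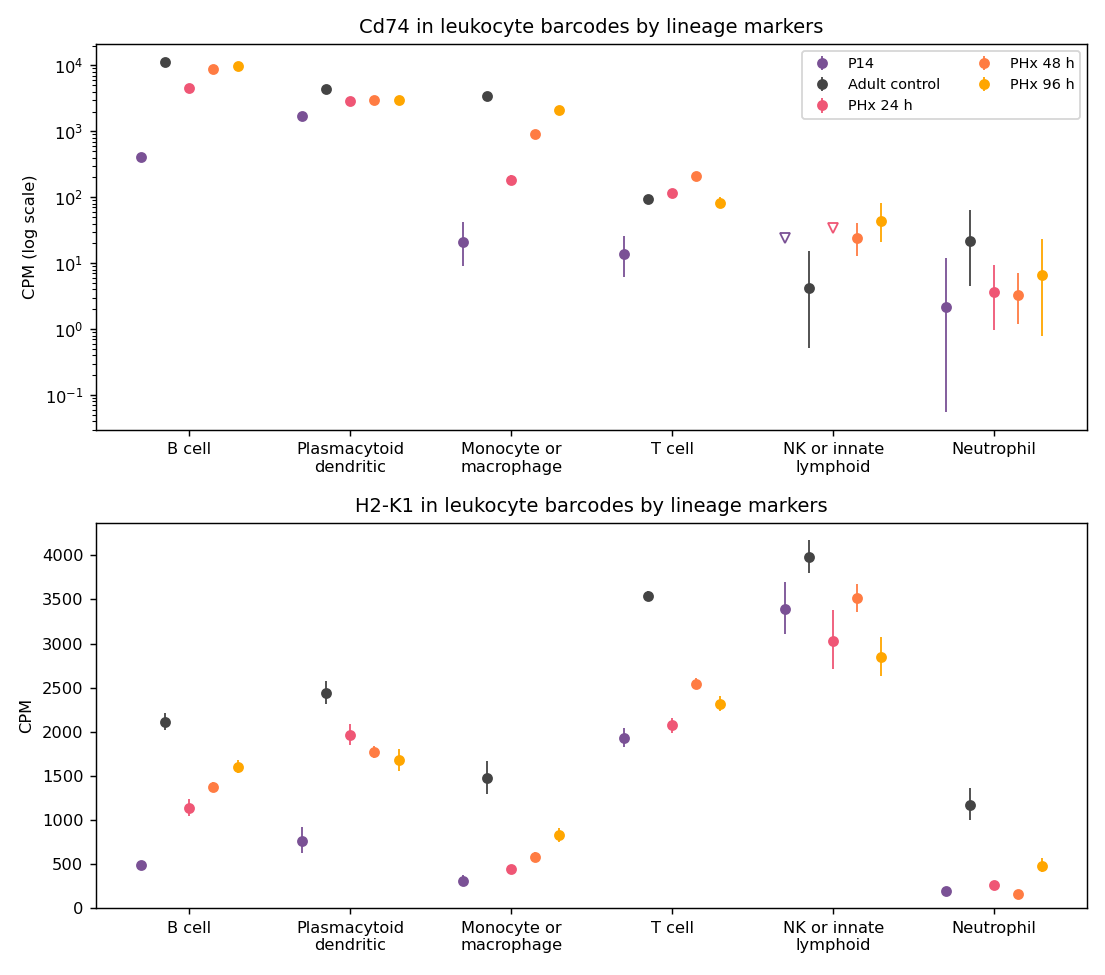
Points show CPM of Cd74 (upper panel, log scale) and H2-K1 (lower panel, linear scale from 0) in leukocyte barcodes split by lineage markers, with 95% Poisson intervals, and open triangles give the upper limit where no UMI was found. Cd74 in B-marker barcodes is 412 CPM at P14 and 4517 to 11237 CPM in the adult libraries, and H2-K1 is highest in the adult control in each lineage shown.

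Class I in leukocytes also differed by library. H2-K1 stood at 882 CPM [851–913] at P14, 3107 [3064–3151] in the adult control, and after surgery 1199.9 [1168–1233], 1572 [1546–1597] and 1678 [1639–1718] (24 h, 48 h and 96 h). It fell 3.52-fold at P14 [3.39–3.66] and 2.59-fold at 24 h [2.51–2.67]. H2-D1 had 1078, 2299, 1481, 1849 and 1685 CPM and B2m 859, 1829, 1179, 1292 and 1514 CPM, and both fell 2.13-fold at P14 only. Without the deepest 5% of barcodes neither passed 2-fold (H2-D1 at -0.87), nor did B2m with free RNA subtracted (-0.88). Subtracting free RNA left the H2-K1 order in place, at 900, 3374, 1234, 1607 and 1830 CPM.

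T-marker barcodes, the commonest in the adult control, had H2-K1 at 1935, 3537, 2072, 2547 and 2319 CPM. The adult control was the highest there too, and no other library was as much as 2-fold lower. NK-marker barcodes had 3395, 3982, 3033, 3514 and 2849 CPM, B-marker barcodes 489.6, 2114, 1141, 1372 and 1603 CPM, and neutrophil-marker barcodes 198, 1170.3, 267, 167 and 485 CPM. Monocyte or macrophage barcodes had 316, 1476, 443, 588 and 827 CPM and plasmacytoid-marker barcodes 762, 2443, 1965, 1774 and 1676 CPM. In B-marker, neutrophil-marker, monocyte or macrophage and plasmacytoid-marker barcodes P14 was over 2-fold below the adult control. In neutrophil-marker barcodes the 24 h, 48 h and 96 h libraries were over 2-fold below it as well. The same held at 24 h and 48 h in monocyte or macrophage barcodes. In free RNA H2-K1 stood at 344, 2048, 857, 596 and 609 CPM, above its level in neutrophil-marker barcodes in each library and above that in monocyte or macrophage barcodes in all but the 96 h library. H2-Q10, a hepatocyte gene, had 126, 1617, 277, 167 and 707 CPM in the neutrophil-marker barcodes. The part of free RNA in the H2-K1 level of these lineages was not tested. Neutrophil-marker barcodes made up 21.0%, 4.20%, 25.9%, 14.3% and 11.7% of leukocytes, the smallest share being in the adult control. The part of this makeup in the leukocyte sums was not tested.

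H2-D1 in neutrophil-marker barcodes had 958, 2253, 1429, 1829.6 and 2564 CPM. In NK-marker barcodes H2-D1 had 3086, 2891, 2337, 2875 and 2409 CPM and B2m 1871, 1807, 1799, 1764 and 2022 CPM. For B2m the intervals of all 5 libraries overlapped there.

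Among the nonclassical genes, H2-Q7 in leukocytes had 138, 769, 331, 456 and 406 CPM and fell at P14 (5.58-fold [5.08–6.13]) and at 24 h (2.32-fold [2.19–2.46]). H2-Q6 (33.4, 148, 64.4, 83.8 and 108 CPM) fell in the same 2 libraries, and H2-Q4 (98.8, 179, 70.1, 113 and 146 CPM) at 24 h. H2-T22 (70.3, 157, 92.8, 112 and 125 CPM) and H2-M3, which presents formylated peptides (23.4, 56.8, 39.6, 56.1 and 62.9 CPM), fell at P14. H2-T23 changed in none, at 164, 289, 249.6, 356 and 314 CPM. Its highest level by lineage was in plasmacytoid-marker barcodes at 48 h, at 775 CPM.

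H2-Q10 in leukocytes had 65.4, 597, 210.0, 106 and 396 CPM, and fell at P14, 24 h and 48 h. Hepatocyte markers summed to 7423, 9535, 3287, 1770 and 11718 CPM in the same barcodes. In free RNA H2-Q10 stood at 753, 2679, 1299, 1329 and 2107 CPM. Every leukocyte value was below its library's free RNA, and the part of free RNA in these values was not tested. The transporter genes Tap1 (69.7, 103, 65.5, 82.3 and 106 CPM) and Tap2 (61.7, 108, 54.1, 88.5 and 76.5 CPM) passed 2-fold in no leukocyte comparison, and neither did H2-Ke6 (39.7, 72.9, 37.3, 45.1 and 57.3 CPM).

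All-gene shares in leukocytes were 12.5% rising and 13.7% falling at P14, 6.86% and 11.6% at 24 h, 5.18% and 11.5% at 48 h, and 4.72% and 6.03% at 96 h. The class I processing list had 0 of 12 genes rising in any of the 4 comparisons and 1 falling, the editing homologue Tapbpl at 24 h (19.7 against 51.7 CPM). Its most abundant genes, the immunoproteasome subunit Psmb8 (454, 629.6, 469.7, 559 and 583 CPM), Calr and Psme1, stayed within 2-fold. Of the class II processing list, the proteases Ctss, Ctsl and Ctsb fell at P14 (3 of 9), Lgmn rose at 24 h (1 of 9) and March1, a ubiquitin ligase that acts on class II, rose at 96 h (66.8 against 26.2 CPM), with 0 changed at 48 h.

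Of 14 interferon-gamma genes in leukocytes, 0 rose and 4 fell at P14 (among them Ifng, Socs1 and Socs3). At 24 h 1 rose (Socs3) and 5 fell (among them Socs1, Gbp2, Igtp and Irgm1), at 48 h Socs3 rose and Socs1 fell, and at 96 h Socs1 fell. The inducible GTPase gene Igtp had 39.7, 66.7, 21.5, 37.0 and 33.9 CPM. Of the other MHC-like genes, of which 4 to 6 were usable, Ulbp1 rose at P14, Cd1d1 fell at 24 h and 48 h, and Azgp1, a hepatocyte gene, fell in all 4 comparisons.

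In endothelial barcodes H2-K1 stood at 464 CPM [418–515] at P14, 2363 [2190.4–2545] in the adult control, and after surgery 1399 [1313–1489.5], 1196 [1099–1299.6] and 1342 [1233–1457] (24 h, 48 h and 96 h). It fell 5.09-fold at P14 [4.47–5.79]. H2-D1 had 349.9, 981, 1018, 988 and 932 CPM and fell 2.80-fold at P14 [2.37–3.32], short of the threshold among barcodes with under 5% hepatocyte transcripts (-0.98), while its adult libraries had overlapping intervals. B2m had 1055, 2875, 2031, 2339 and 2587 CPM and fell 2.73-fold at P14 [2.47–3.00]. Of these barcodes 15, 5, 11, 7 and 4 also met the hepatocyte rule, and without them H2-K1 was 440.4, 2304, 1380, 1274 and 1285 CPM, H2-D1 483, 1163, 1269, 1319 and 1001 CPM, and B2m 728, 2740, 2053, 2424 and 2516 CPM.

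These barcodes were shallow beside the free RNA of their own libraries, with a median of 2016.5 UMIs in the adult control, where near-empty droplets held 1328. Hepatocyte markers summed to 92532, 33132, 16797, 20126 and 46090 CPM in them. The 6 endothelial markers, which are the genes that chose these barcodes, summed to 2511, 5815, 5931, 7755 and 5244 CPM. P14 had the highest hepatocyte sum and the lowest endothelial sum. Each barcode needed UMIs of at least 3 of these 6 genes, so their CPM also depends on depth. The median was highest at P14 (3330.5 UMIs) and lowest at 48 h (971 UMIs). The endothelial sum is therefore no independent measure of how endothelial the barcodes were. The 5 erythroid markers summed to 33.4, 655, 475, 17324 and 316 CPM and the 9 monocyte or macrophage markers to 37.3, 54.3, 366, 339 and 74.3 CPM, with Clec4f, a Kupffer cell marker, at 0 in all but the adult control. The part of these in the endothelial values was not tested. H2-K1 in the adult control was 1.15 times its level in free RNA, whereas H2-D1 was 2.49 times and H2-T23 5.26 times. H2-Q10 (651, 1938, 1147, 1159.6 and 1456 CPM) was also below free RNA in each library. Restricted to barcodes under 10% mitochondrial UMIs (35, 67, 177, 106 and 94), H2-K1 was 368, 2099, 1348, 1294 and 1158 CPM and H2-D1 462, 1364, 1298, 1459 and 1146 CPM.

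H2-T23 in endothelial barcodes had 192, 268, 295, 264 and 218 CPM. Its log2 ratio at P14 was -0.48, between -1.24 and -0.29 over 12 alternatives, of which 3 passed 2-fold downward. Without the barcodes of the hepatocyte rule it had 173 CPM at P14 against 348 in the adult control. H2-Q7 (32.2, 149, 90.8, 118 and 172 CPM) and H2-Q6 (12.9, 50.9, 25.5, 38.6 and 76.7 CPM, on 10 to 32 UMIs) fell at P14. H2-Q4 (52.7, 74.7, 46.8, 85.7 and 115 CPM), H2-T22 (77.2, 84.9, 114, 109 and 98.2 CPM) and Tap1 (28.3, 40.7, 38.3, 34.3 and 47.9 CPM) did not pass 2-fold. Tap2 was 2.45-fold higher at 24 h [1.09–6.47] on 41 and 7 UMIs, and H2-M3 2.40-fold higher [0.82–9.56] on 23 and 4. H2-Ke6 was lower at 48 h (11 against 18 UMIs) and at 96 h (9 against 18).

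At P14 2 of 18 members passed 2-fold upward and 8 downward, where 16.5% of genes did so upward and 16.8% downward. Of these 10, H2-Aa, H2-DMa, H2-Q1 and H2-T24 rest on at most 6 UMIs per library, and H2-Q10, which fell, lay below free RNA. The counts were 2 up and 3 down of 16 at 24 h (background 17.3% and 14.2%), 1 and 3 of 16 at 48 h (19.7% and 14.5%), and 1 and 3 of 17 at 96 h (13.8% and 12.4%). With backgrounds of this size the counts at 24 h, 48 h and 96 h are not a result about the members. Class II was at the floor: Cd74 had 2, 0, 1, 2 and 1 UMIs and H2-Aa 0, 2, 0, 3 and 1 UMIs, which are too few for a fold.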

How the data were processed

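Single-cell libraries were made with the 10x v3 kit after perfusion and dead-cell removal, per the labels' protocols. The deposited files hold UMI counts per gene and barcode, which the authors made with Cell Ranger on mm10, per the submitters' processing notes. These also name bcl2fastq 2.17.1.14 and Seurat 3.1, and the matrix headers name software 3.0.2. The annotation is not given in the sources used here. All barcodes with UMIs were deposited, so barcodes were chosen by the rules stated in the results, and no doublet caller was run.

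UMIs were summed per class and library and divided by the sum without the 13 mitochondrial genes (CPM). Intervals are exact Poisson or binomial (scipy 1.17.1), at 95%. There was 1 library per group, so no test was run. Free RNA is the sum over barcodes ranked 20001 to 60000 by UMIs. Sequences are from RefSeq on GRCm38.p6, the same build as mm10, and gene positions from the GRCm38 annotation. TMM factors came from edgeR 4.0.16 in R 4.3.3. Alternatives changed the scaling, pseudocount, minimum level, barcode rules and free RNA. The scripts were tested on simulated data.

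Members were taken by symbol. Values in every library are given for members of at least 50 CPM, ranges for those of 5 to 50 CPM, and names for the rest. Of each of the 4 pathway lists, counts are given with the genes of highest level and largest ratio; some list genes are counted but not reported here by name. The members and lists were chosen with earlier results of these data known.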

Additional observations from a re-analysis of the deposited data

Results flagged for a closer look

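H2-T23 at P14 rose in hepatocyte barcodes and had ratios of the opposite sign, short of 2-fold, in the other classes. Its log2 ratio over the adult control was 2.08 in hepatocyte barcodes, past 2-fold, against -0.81 in leukocyte barcodes and -0.48 in endothelial barcodes. The leukocyte value ran from -1.08 to -0.54 over 10 alternatives, of which 1 passed 2-fold downward. It sums lineages that differed. NK-marker barcodes had 456 CPM at P14 against 305 in the adult control. T-marker barcodes had 237 against 254, neutrophil-marker 146 against 161 and plasmacytoid-marker 526 against 575. B-marker barcodes had 60.9 against 243 and monocyte or macrophage barcodes 125 against 360. The endothelial value ran from -1.24 to -0.29 over 12 alternatives, of which 3 passed 2-fold downward, among them the one without hepatocyte-rule barcodes (173 against 348 CPM). The difference between the classes was not tested, since each group has 1 library. In free RNA H2-T23 also stood higher at P14, at 137 CPM against 51.0 CPM in the adult control.

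H2-M3 at 24 h was past 2-fold upward in endothelial barcodes (1.21) and lower in leukocyte barcodes (-0.51), on 23 and 4 UMIs in the endothelial sums. Tap2 at 24 h was at 1.26 in endothelial and -0.98 in leukocyte barcodes, on 41 and 7 endothelial UMIs. Tap2 at 48 h was at 1.08 in endothelial and -0.28 in leukocyte barcodes, on 24 and 7 UMIs. These differences were not tested either.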

How the results depend on the processing

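Ratios were followed singly through the alternatives for B2m, H2-D1, H2-K1, H2-Q7 and H2-T23 in every class. In hepatocytes H2-Q1, H2-Q10 and H2-T22 were added, and in leukocytes Cd74, Ciita, H2-Aa, H2-Ab1 and H2-Eb1. Of the 30 called ratios of these members, 30 kept their sign in every alternative and 19 stayed past 2-fold in all of them. Calls of other members are not among the 30. H2-Q1 in hepatocytes at 48 h, under 5 CPM in both libraries and so not called, was at -0.36, opposite in sign to its main value, with 10 to 20% mitochondrial UMIs. No paired analysis was possible because each group has 1 library. The causes of the moves below were not tested. In hepatocytes the number of members higher at 24 h became 0 with a pseudocount of 10 CPM, a minimum of 50 CPM or 10 to 20% mitochondrial UMIs. At 48 h it became 1 with no minimum or a minimum of 20 UMIs. At 96 h it became 2 with either of those, 0 with 50 CPM and 3 with 10 to 20% mitochondrial UMIs. At P14 it became 1 with 50 CPM and 3 with TMM, no minimum or a minimum of 20 UMIs. The number lower at 24 h became 2 from 10000 UMIs per barcode or without barcodes holding leukocyte or endothelial transcripts, and 1 without the deepest 5%. At 96 h it became 1 with 10 to 20% mitochondrial UMIs. At P14 the number lower became 3 with TMM. It became 5 with 10 to 20% mitochondrial UMIs or without barcodes holding leukocyte or endothelial transcripts.

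In leukocytes the number higher at 96 h became 3 with a pseudocount of 10 CPM and 6 with free RNA subtracted. At 48 h it became 1 with no minimum. The number lower became 10 at P14 without the deepest 5%, and 3 at 48 h and 1 at 96 h after subtraction of free RNA. Class I members past 2-fold in cycling hepatocytes became 2 at P14, 1 at 24 h and 2 at 96 h with at least 5 mitotic genes, and on the zonation axis 1 at 48 h with the outer 2 of 4 equal bins.

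In endothelial barcodes the number higher at P14 became 0 with mitochondrial UMIs in the total, a pseudocount of 10 CPM, 50 CPM or 20 UMIs, 5 with no minimum, and 1 after free RNA subtraction or without the deepest 5%. At 24 h it became 1 with a pseudocount of 10 CPM, 50 CPM, free RNA subtraction or under 10% mitochondrial UMIs, and 5 with no minimum. At 48 h it became 0 with TMM, a pseudocount of 10 CPM or free RNA subtraction, 4 with no minimum or without the deepest 5%, 2 from 1000 UMIs and 3 without hepatocyte-rule barcodes. At 96 h it became 4 with no minimum, 0 with 50 CPM or 20 UMIs and 2 without the deepest 5%. The number lower became 0 at 24 h and 1 at 48 h and 96 h with a pseudocount of 10 CPM, 50 CPM or 20 UMIs, and 5 at 24 h and 1 at 96 h under 10% mitochondrial UMIs. The minimum of 20 UMIs and the removal of hepatocyte-rule barcodes were chosen after seeing the data. At 971 to 3330.5 UMIs per barcode, endothelial ratios of genes under 50 CPM are limited by counting error.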
